A study of Rattus norvegicus with 11 samples.

Results

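The genes described here encode the receptor subunits for glutamate and GABA, the main excitatory and inhibitory transmitters of the brain. They were taken from the gene table by symbol alone: AMPA (Gria), NMDA (Grin), kainate (Grik), delta (Grid) and metabotropic glutamate receptors (Grm), GABA-A receptors (Gabr) and GABA-B receptors (Gabbr). This gave 47 of the 30560 genes in the table, made up of 4 AMPA, 7 NMDA, 5 kainate, 2 delta, 8 metabotropic, 19 GABA-A and 2 GABA-B genes. A filter on low counts kept 40 of them for testing, and Gabra6, Gabrp, Gabrq, Gabrr1, Gabrr3, Grin3b and Grm6 were too low to be tested.

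RNA of the striatum of adult male Sprague-Dawley rats was sequenced 3 days after an intracerebral hemorrhage (ICH), made by injecting bacterial collagenase into the right striatum under isoflurane. The IC group (common ICH, 3 rats) received 0.2 U in 1.0 µL and the IS group (severe ICH, 3 rats) 0.6 U in 3.0 µL. The IS-HA group (3 rats) received the IS dose and had 150 µL of the hematoma aspirated 6 h later, and the Normal group (2 rats) was not injected. Each library came from tissue on the injected side, or from the matching region of a Normal rat. Collagenase opens vessels by digesting their wall, so the model combines a bleed with an enzyme injection, and a group injected with vehicle was not analysed here.

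An AMPA, NMDA or kainate receptor is an ion channel of several subunits that opens when glutamate binds. A metabotropic glutamate (mGlu) receptor acts through G proteins, and delta receptors belong to the glutamate receptor family by sequence but act mainly as synaptic organizers. A GABA-A receptor is a chloride channel assembled from alpha, beta and gamma, delta or other subunits, whereas a GABA-B receptor is a G protein-coupled pair of Gabbr1 and Gabbr2. In the striatum these receptors are carried mostly by medium spiny neurons, the GABA-releasing projection cells that receive glutamate from cortex and thalamus, with further contributions from interneurons and glia.

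Promoters of 4 member genes are shown because these genes mark the ends of the range of responses described in what follows. Gabrb2 and Gabrg3 were among the 5 largest falls in IS, Gabrr2 was the only tested member that rose, and Grik5 had the smallest decline in IS among the members with an adjusted p under 0.05. Each sequence runs 5′ to 3′ from before to just past the start of the gene and was taken from RefSeq on the GRCr8 build, on the plus strand for Gabrb2 (chr10:27439543-27439842) and Gabrr2 (chr5:52248228-52248527) and on the minus strand for Gabrg3 (chr1:117382408-117382707) and Grik5 (chr1:89794860-89795159). Capitals mark every match on either strand to the GC box GGGCGG, the TATA box TATAAA and the cyclic AMP response element TGACGTCA.
Gabrb2: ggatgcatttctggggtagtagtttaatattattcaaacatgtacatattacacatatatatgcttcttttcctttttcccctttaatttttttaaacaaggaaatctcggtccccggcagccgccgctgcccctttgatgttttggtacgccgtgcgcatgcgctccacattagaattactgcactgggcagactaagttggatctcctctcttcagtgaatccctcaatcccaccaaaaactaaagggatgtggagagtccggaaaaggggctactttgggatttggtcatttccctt
Gabrg3: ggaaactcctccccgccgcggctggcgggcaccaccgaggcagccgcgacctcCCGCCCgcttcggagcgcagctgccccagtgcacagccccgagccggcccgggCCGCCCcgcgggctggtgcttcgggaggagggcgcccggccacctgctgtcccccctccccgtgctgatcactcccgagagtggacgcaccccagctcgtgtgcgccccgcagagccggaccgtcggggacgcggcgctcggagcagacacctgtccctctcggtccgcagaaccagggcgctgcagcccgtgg
Gabrr2: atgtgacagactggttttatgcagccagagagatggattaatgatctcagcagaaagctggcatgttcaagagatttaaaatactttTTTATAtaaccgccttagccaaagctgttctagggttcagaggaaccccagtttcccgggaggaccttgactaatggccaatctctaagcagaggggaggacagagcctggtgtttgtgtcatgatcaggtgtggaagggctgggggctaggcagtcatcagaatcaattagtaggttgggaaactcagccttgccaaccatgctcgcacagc
Grik5: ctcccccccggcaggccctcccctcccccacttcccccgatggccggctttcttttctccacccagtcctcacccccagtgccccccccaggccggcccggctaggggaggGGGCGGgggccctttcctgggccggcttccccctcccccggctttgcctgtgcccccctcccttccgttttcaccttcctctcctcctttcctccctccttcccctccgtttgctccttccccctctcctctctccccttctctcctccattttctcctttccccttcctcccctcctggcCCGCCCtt
The Gabrb2 window held none of the 3 motifs, Gabrg3 and Grik5 held 2 GC boxes each, and Gabrr2 held 1 TATA box, read on the opposite strand. Their GC content was 44.0% for Gabrb2, 76.7% for Gabrg3, 48.0% for Gabrr2 and 69.0% for Grik5, and they held 9, 37, 3 and 11 CpG dinucleotides in that order. A promoter entry was found for 30 of the 47 genes. Of these 30, 12 (40%) held a GC box, against 33.1% of all 33469 promoters of the same length. A TATA box was found in 2 of the 30 (6.67%, against 14.2% of all promoters) and the cyclic AMP response element in 0 of the 30 (against 1.83%). The median GC content was 59.2% over the 30 receptor promoters and 51.7% over all promoters, with median CpG counts of 11 and 7. Gabra2, Gabrp, Gria1, Gria2, Gria3, Grid1, Grin2a, Grin2b, Grin3b, Grm2, Grm3 and Grm4 were among the genes with no entry.

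Total counts per library ran from 6701301 (IS-HA replicate 2) to 18817645 (IC replicate 3). A count of 3 was taken as the floor of detection and served to mark low values. Values under it were kept in the levels, fold changes and ratios. The striatal label was matched by the markers: the 12 medium spiny neuron markers summed to 6689 to 7067 TPM (a level scaled to gene length and to the library) in Normal, against 118 to 392 for 8 markers of cortical glutamatergic neurons. Not one of the marker genes in the table was at 0 in every rat. Some libraries stood apart in the receptor genes. IS replicate 4 was the lowest of the 11 rats in 31 of the 40 tested members (20.1% of all tested genes), and IS-HA replicate 2 was the lowest of its group in 30 of 40 (45.6% of all tested genes). Of the 2 Normal rats, replicate 3 was the higher in 35 of 40 members (51.4% of all tested genes). The cortical markers differed between the same rats, at 118 TPM in Normal replicate 1 and 392 TPM in Normal replicate 3, and their part in the receptor levels was not tested.

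The first question was how the receptor genes of the hemorrhagic striatum compared with those of uninjured striatum. A gene was called where edgeR's quasi-likelihood test gave an adjusted p under 0.05 (Benjamini-Hochberg over 15742 genes) and an absolute log2 fold change of at least 1. In IS, 32 of the 40 tested members fell and 1, Gabrr2, rose, where 17% of all tested genes were called lower and 18.8% higher. In IC, 9 members fell and Gabrr2 rose, against 2.66% and 10.9% of all genes. In IS-HA, 21 members fell and Gabrr2 rose, against 7.71% and 15.1%. The median log2 fold change of the 40 members was -1.10 in IC, -1.89 in IS and -1.19 in IS-HA, while the median over all tested genes was 0.00, 0.02 and 0.06. The 3 comparisons share the same 2 Normal rats, so they are not independent of each other. In bulk tissue, fewer cells of a type and less RNA per cell cannot be told apart, and this holds for every value given here.

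**Figure D1:**
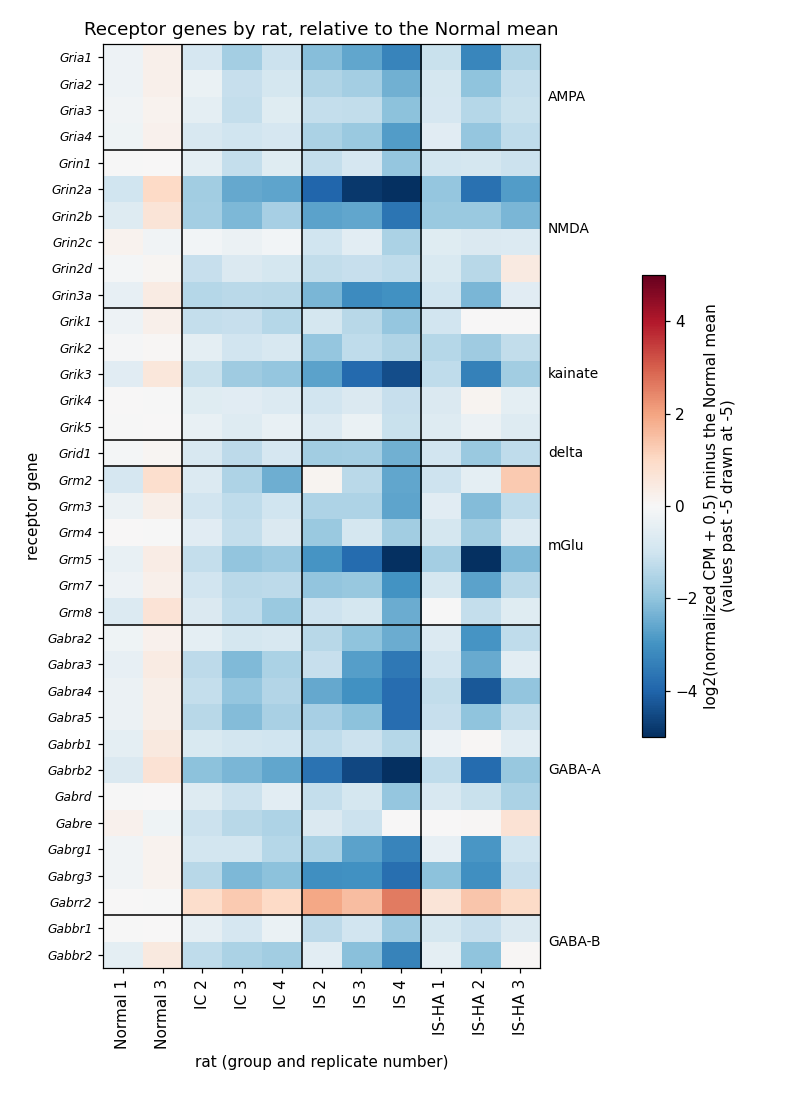
Level of 35 of the 40 tested receptor genes (rows, by class) in each of the 11 rats (columns), as log2 of normalized CPM plus 0.5 minus the mean of the 2 Normal rats; the colour scale ends at 5 in either direction and stronger values take the end colour. Most rows are below Normal in every hemorrhage rat, with the lowest values in IS replicate 4, and Gabrr2 is the row that is higher in all 9.

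The group means were ordered Normal above IC above IS in 37 of the 40 members (37.6% of all tested genes), and in these 37 the IS-HA mean was also above the IS mean (33.1% of all tested genes meet both conditions). In normalized CPM (counts scaled to the library's size), the rats of IC were all below both Normal rats for 37 members (31.3% of all tested genes), those of IS for 37 (36.9%) and those of IS-HA for 31 (29.2%). Grin2c, Grm2 and Gabrr2 were the members outside this pattern in IC. The calls leaned on the Normal rats unequally. Without Normal replicate 3, 0 members were called lower in IC, 24 in IS and 1 in IS-HA (0.174%, 9.45% and 2.01% of all tested genes). Without Normal replicate 1 the counts were 4, 32 and 12 (1.31%, 15.2% and 4.9%). The count of 9 in IC also became 5 without IC replicate 2, 1 without IC replicate 3 or IC replicate 4, and 20 without IS-HA replicate 2 (2.08%, 0.618%, 0.796% and 6.07% of all tested genes). IS-HA replicate 2 belongs to neither group of this comparison and enters it through the scaling and spread shared by all rats and through the filter, which kept 15897 genes without it.

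AMPA receptors carry the fast excitatory current, and 4 of 4 AMPA genes fell in IS and in IS-HA while 0 of 4 passed the test in IC. Beside this and the class counts that follow, 2.66%, 17% and 7.71% of all tested genes were called lower in IC, IS and IS-HA. Called higher were 10.9%, 18.8% and 15.1% in the same order. Gria1, whose subunit is inserted into synapses during potentiation, measured 75.8 and 118 TPM in the Normal rats, 55.9, 31.8 and 42.2 TPM in IC, 22.9, 15.1 and 8.51 TPM in IS, and 47.8, 8.03 and 36.9 TPM in IS-HA. All 9 hemorrhage rats were below both Normal rats, and the IS rats were below every IC rat. Its log2 fold change against Normal was -1.20 ± 0.51 (SE, adjusted p = 0.124 by edgeR) in IC, -2.63 ± 0.52 (0.00239) in IS and -1.72 ± 0.51 (0.0277) in IS-HA. Gria2, whose edited subunit keeps the channel nearly closed to calcium, was the most abundant AMPA gene, with 125 and 192 TPM in Normal, 131, 75.4 and 80.8 TPM in IC, 57.9, 46.8 and 27.2 TPM in IS, and 91.0, 32.7 and 75.0 TPM in IS-HA. IC replicate 2 lay between the 2 Normal rats, whereas the IS and IS-HA rats were below both. The log2 fold change of Gria2 was -0.77 ± 0.36 (adjusted p = 0.155 by edgeR) in IC, -1.84 ± 0.36 (0.00226) in IS and -1.31 ± 0.36 (0.0199) in IS-HA.

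Gria3 averaged 84.7 ± 20.3 TPM in Normal (SD, n = 2), 51.9 ± 11.9 in IC, 30.9 ± 10.8 in IS and 39.8 ± 12.4 in IS-HA (n = 3 each). Gria4, the AMPA gene linked most with fast-spiking interneurons, averaged 34.0 ± 8.92, 18.8 ± 1.26, 8.28 ± 3.72 and 15.7 ± 8.69 TPM in the same order. Both genes had every hemorrhage rat below both Normal rats. In IS the log2 fold change was -1.45 ± 0.29 (adjusted p = 0.0026 by edgeR) for Gria3 and -2.03 ± 0.39 (0.00192) for Gria4, and in IS-HA it was -1.12 ± 0.29 (0.0157) and -1.16 ± 0.38 (0.0394). In IC the values were -0.75 ± 0.29 (0.0984) and -0.90 ± 0.38 (0.121).

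NMDA receptors need glutamate, a co-agonist and depolarization to open, and pass calcium. Of their 6 tested genes, 3 fell in IC, 5 in IS and 2 in IS-HA. Grin1, the subunit present in every NMDA receptor, measured 242 and 276 TPM in Normal, 198, 125 and 161 TPM in IC, 121, 142 and 62.4 TPM in IS, and 150, 118 and 136 TPM in IS-HA. All hemorrhage rats were below both Normal rats, and the IS and IC ranges overlapped. Its log2 fold change was -0.73 ± 0.29 (adjusted p = 0.104 by edgeR) in IC, -1.25 ± 0.29 (0.00525) in IS and -0.96 ± 0.29 (0.0289) in IS-HA, the last short of the fold threshold.

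Grin2a, the regulatory subunit that predominates in mature forebrain synapses, fell most of the 40 members in all 3 comparisons with Normal. It measured 6.80 and 30.9 TPM in Normal, 4.59, 2.54 and 2.08 TPM in IC, 0.792, 0.328 and 0.0473 TPM in IS, and 4.05, 0.794 and 2.14 TPM in IS-HA. The IS values stood on 23, 10 and 1 counts, the last under the floor, and the Normal rats themselves differed with 308 and 1370 counts. The log2 fold change was -2.64 ± 0.69 (adjusted p = 0.0241 by edgeR) in IC, -5.49 ± 0.82 (0.000500) in IS and -3.02 ± 0.70 (0.00951) in IS-HA. Grin2b, the subunit with slower currents that is rich in striatum, measured 7.52 and 20.8 TPM in Normal, 3.97, 2.73 and 3.60 TPM in IC, 1.89, 1.88 and 0.742 TPM in IS, and 3.61, 2.78 and 2.65 TPM in IS-HA. No hemorrhage rat reached the lower Normal rat. Grin2b had the lowest adjusted p of the members in IC (log2 fold change -2.07 ± 0.41, adjusted p = 0.00588 by edgeR) and in IS (-3.18 ± 0.43, 0.000296), and in IS-HA it was at -2.21 ± 0.41 (0.0031).

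Grin3a, a subunit that lowers calcium entry, measured 3.59 and 7.34 TPM in Normal, 1.89, 2.07 and 1.71 TPM in IC, 0.926, 0.353 and 0.382 TPM in IS, and 2.72, 0.734 and 3.79 TPM in IS-HA. It fell in IC (log2 fold change -1.57 ± 0.48, adjusted p = 0.0463 by edgeR) and in IS (-3.26 ± 0.53, 0.000851), and IS-HA replicate 3 lay between the Normal rats (-1.22 ± 0.48, 0.0753). Grin2d, found mainly in interneurons, fell in IS (-1.32 ± 0.44, 0.0288), with -0.97 ± 0.43 (0.137) in IC and -0.38 ± 0.43 (0.509) in IS-HA. Grin2c missed the fold threshold in IS, at -0.99 ± 0.25 with an adjusted p of 0.00752.

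Kainate receptors modulate transmission on both sides of the synapse, and 1 of 5 genes fell in IC, 3 in IS and 2 in IS-HA. Grik2, the main channel-forming kainate subunit of the striatum, measured 30.2 and 35.5 TPM in Normal, 25.0, 18.2 and 17.7 TPM in IC, 8.89, 13.3 and 10.7 TPM in IS, and 13.2, 7.98 and 15.2 TPM in IS-HA. The IS and IS-HA rats overlapped, and both groups were below every IC rat. Grik2 had the lowest adjusted p of the members in IS-HA, with a log2 fold change of -1.48 ± 0.24 (0.00134 by edgeR), beside -1.56 ± 0.24 (0.000566) in IS and -0.75 ± 0.23 (0.0486) in IC. It was also the only gene of the 40 still called lower in IS-HA without Normal replicate 3. Grik5, a high-affinity subunit that needs Grik1, Grik2 or Grik3 to form a channel, measured 93.5 and 107 TPM in Normal, 83.4, 70.0 and 73.2 TPM in IC, 65.3, 78.6 and 42.3 TPM in IS, and 69.0, 68.9 and 70.1 TPM in IS-HA. All 9 hemorrhage rats were below both Normal rats, but by little, and no comparison passed the fold threshold (IS -0.68 ± 0.23, adjusted p = 0.0278 by edgeR, IC -0.46 ± 0.23, 0.174, IS-HA -0.53 ± 0.23, 0.0928).

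Grik3, a kainate subunit with low glutamate sensitivity, was among the 5 largest falls in IS. It measured 10.6 and 26.2 TPM in Normal, 8.04, 5.08 and 3.93 TPM in IC, 2.49, 0.844 and 0.456 TPM in IS, and 7.30, 1.12 and 5.33 TPM in IS-HA. The IS rats were below every IC rat, and IS-HA spanned both groups. For Grik3 the log2 fold change was -1.73 ± 0.61 (adjusted p = 0.0736 by edgeR) in IC, -3.82 ± 0.68 (0.00131) in IS and -2.04 ± 0.62 (0.0302) in IS-HA. Grik1 measured 2.60 and 4.07 TPM in Normal, 1.37, 1.43 and 1.00 TPM in IC, 1.76, 1.07 and 0.605 TPM in IS, and 1.70, 2.82 and 3.63 TPM in IS-HA. It fell in IC (-1.44 ± 0.41, 0.0354) and IS (-1.51 ± 0.42, 0.013), whereas 2 of the IS-HA rats lay within the Normal range (-0.30 ± 0.41, 0.588). Grik4 did not reach the fold threshold in any group (IS -0.95 ± 0.25, 0.00936).

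The delta gene Grid1 measured 33.4 and 41.4 TPM in Normal, 22.8, 16.1 and 19.9 TPM in IC, 11.6, 11.2 and 6.25 TPM in IS, and 20.6, 8.45 and 17.0 TPM in IS-HA. The IS rats were below every IC rat. Its log2 fold change was -0.98 ± 0.29 (adjusted p = 0.041 by edgeR) in IC, -1.94 ± 0.30 (0.000594) in IS and -1.33 ± 0.29 (0.00729) in IS-HA, so it fell in IS and IS-HA and missed the fold threshold in IC.

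**Figure D2:**
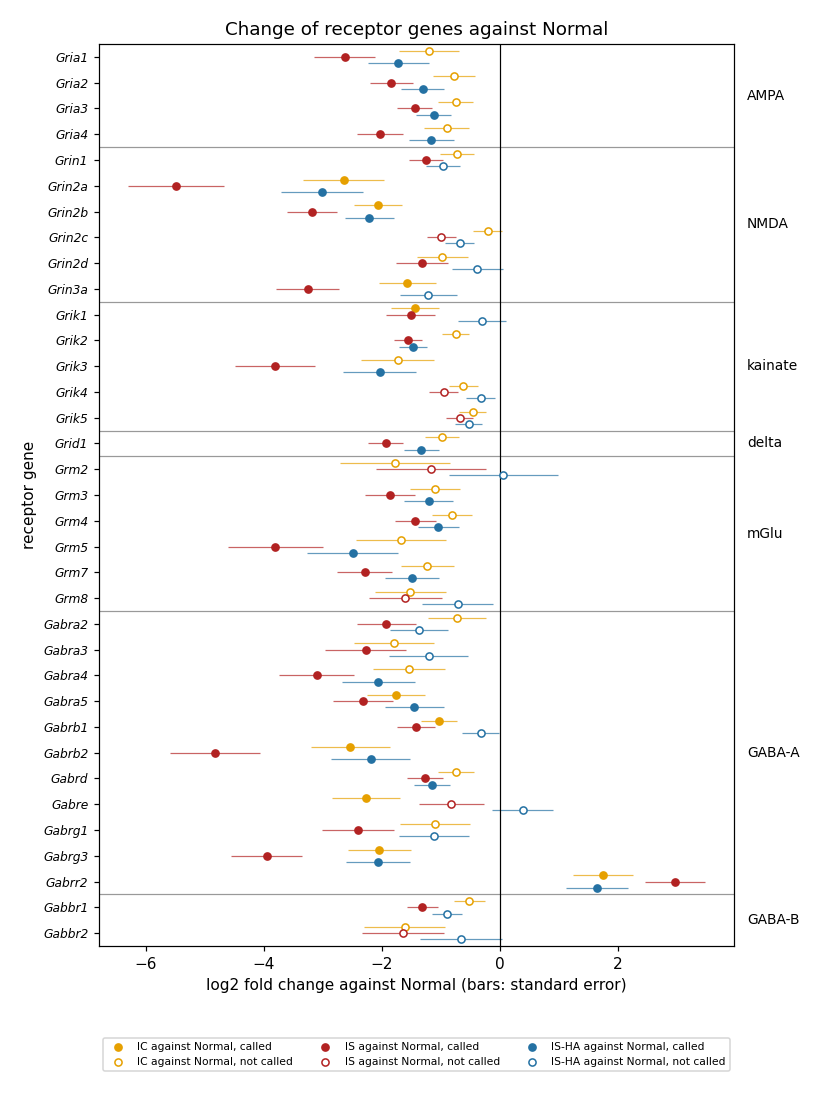
Log2 fold change against Normal (horizontal axis) of 35 of the 40 tested receptor genes (rows) in IC, IS and IS-HA; points are edgeR estimates, bars are 1 SE, and filled points passed the adjusted p and fold thresholds. Most IS points lie left of the IC and IS-HA points of the same gene, from -5.49 for Grin2a to -0.68 for Grik5 below 0, and Gabrr2 is the one gene with filled points on the right.

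The metabotropic genes gave 0 calls in IC and 5 of 7 lower in both IS and IS-HA. Grm5, a group I receptor that couples to calcium release in medium spiny neurons, was 1 of the 3 most reduced glutamate receptor genes in IS. It measured 61.8 and 113 TPM in Normal, 38.8, 23.3 and 22.4 TPM in IC, 11.1, 5.48 and 1.99 TPM in IS, and 28.1, 1.68 and 19.5 TPM in IS-HA. IS-HA replicate 2 was the lowest of all 11 rats, while the other 2 rats of its group lay above the IS range. The log2 fold change was -1.67 ± 0.76 (adjusted p = 0.145 by edgeR) in IC, -3.81 ± 0.81 (0.00335) in IS and -2.49 ± 0.77 (0.0316) in IS-HA. Grm3, a group II receptor that astrocytes also express, measured 64.2 and 105 TPM in Normal, 45.3, 36.7 and 39.5 TPM in IC, 29.9, 27.3 and 12.1 TPM in IS, and 61.3, 15.2 and 37.7 TPM in IS-HA. IS-HA replicate 1 came close to the lower Normal rat. Its log2 fold change was -1.10 ± 0.42 (0.0911) in IC, -1.86 ± 0.42 (0.00481) in IS and -1.21 ± 0.42 (0.0484) in IS-HA.

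Grm7, a presynaptic group III receptor, averaged 17.0 ± 5.39 TPM in Normal (SD, n = 2), 7.49 ± 1.44 in IC, 3.41 ± 1.46 in IS and 6.28 ± 3.95 in IS-HA (n = 3 each). All hemorrhage rats were below both Normal rats. The log2 fold change of Grm7 was -2.29 ± 0.46 (adjusted p = 0.00263 by edgeR) in IS and -1.49 ± 0.45 (0.0302) in IS-HA, and in IC it stood at -1.23 ± 0.45 (0.0816). Grm4 also fell in IS (-1.43 ± 0.35, 0.00678) and IS-HA (-1.05 ± 0.35, 0.041). Grm2 and Grm8 passed no test against Normal, with adjusted p of 0.319 and 0.0511 in IS.

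GABA-A receptors mediate fast inhibition, and 5 of their 14 tested genes fell in IC, 12 in IS and 6 in IS-HA, with 1 higher each time. Among the alpha subunits, which shape the GABA and benzodiazepine binding sites, Gabra4 was the most abundant in Normal. It measured 96.9 and 164 TPM in Normal, 59.1, 35.9 and 43.2 TPM in IC, 22.3, 14.7 and 7.92 TPM in IS, and 59.1, 5.11 and 34.5 TPM in IS-HA. The IS rats were below every IC rat, and IS-HA replicate 2 was the lowest of all. Its log2 fold change was -1.54 ± 0.61 (adjusted p = 0.105 by edgeR) in IC, -3.11 ± 0.64 (0.00292) in IS and -2.06 ± 0.62 (0.0287) in IS-HA.

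Gabra2, an alpha subunit of the striatum and limbic forebrain, averaged 94.4 ± 25.5 TPM in Normal (SD, n = 2), 59.1 ± 10.4 in IC, 24.7 ± 11.3 in IS and 38.4 ± 27.1 in IS-HA (n = 3 each). It fell in IS (log2 fold change -1.93 ± 0.50, adjusted p = 0.00917 by edgeR), with -0.73 ± 0.49 (0.319) in IC and -1.37 ± 0.49 (0.0546) in IS-HA. Gabra3 and Gabra5, the latter best known from extrasynaptic receptors, also fell in IS (-2.27 ± 0.69, 0.0194, and -2.32 ± 0.51, 0.00399), and Gabra5 fell in IC (-1.76 ± 0.50, 0.0335) and IS-HA (-1.45 ± 0.50, 0.0459) too.

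A GABA-A receptor needs beta subunits to reach the cell surface, and Gabrb2 was among the 5 largest falls in IS. It measured 23.3 and 71.4 TPM in Normal, 10.2, 8.80 and 6.07 TPM in IC, 3.01, 1.37 and 0.394 TPM in IS, and 18.1, 2.07 and 11.8 TPM in IS-HA. Every IS rat was below every IC rat, while 2 of the 3 IS-HA rats were above the IC range. Its log2 fold change was -2.53 ± 0.68 (adjusted p = 0.0266 by edgeR) in IC, -4.83 ± 0.76 (0.000708) in IS and -2.19 ± 0.67 (0.0306) in IS-HA. Gabrb1 measured 7.63 and 17.1 TPM in Normal, 7.02, 6.34 and 5.23 TPM in IC, 4.74, 5.02 and 3.62 TPM in IS, and 10.4, 10.2 and 8.63 TPM in IS-HA. All 3 IS-HA rats lay between the 2 Normal rats. Gabrb1 fell in IC (-1.03 ± 0.31, 0.044) and IS (-1.43 ± 0.32, 0.00448), and IS-HA was at -0.32 ± 0.31 (0.444).

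Among the gamma subunits, which anchor receptors at the synapse, Gabrg3 was also among the 5 largest falls in IS. It measured 8.40 and 12.2 TPM in Normal, 3.84, 1.92 and 1.98 TPM in IC, 0.831, 0.792 and 0.254 TPM in IS, and 2.23, 0.665 and 4.70 TPM in IS-HA. The IS rats were again below every IC rat, on 9, 9 and 2 counts. The fitted log2 fold change was -2.04 ± 0.53 (adjusted p = 0.0236 by edgeR) in IC, -3.95 ± 0.61 (0.000608) in IS and -2.07 ± 0.54 (0.0156) in IS-HA. Gabrg1 fell in IS (-2.41 ± 0.61, adjusted p = 0.00849). Gabrd, the subunit of extrasynaptic receptors, averaged 81.7 ± 6.58, 50.5 ± 7.64, 33.6 ± 12.7 and 37.3 ± 11.5 TPM in the order Normal, IC, IS and IS-HA. It fell in IS (-1.27 ± 0.30, 0.0062) and IS-HA (-1.15 ± 0.30, 0.0172), and IC was at -0.74 ± 0.30 (0.112).

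Gabrr2, a rho subunit known mainly from the retina, was the only tested member that rose. Its counts were 7 and 7 in Normal, 18, 35 and 14 in IC, 34, 24 and 37 in IS, and 15, 12 and 14 in IS-HA, or 0.518 and 0.530 TPM, 1.57, 2.41 and 1.57 TPM, 3.93, 2.64 and 5.88 TPM, and 1.31, 2.00 and 1.79 TPM. Every hemorrhage rat was above both Normal rats, and every IS rat was above the IC and IS-HA rats. Against Normal it stood at 1.74 ± 0.51 on the log2 scale (adjusted p = 0.0388 by edgeR) in IC, 2.97 ± 0.52 (0.00116) in IS and 1.64 ± 0.52 (0.0358) in IS-HA. Its level was low beside the other subunits, and the gene overlaps a long non-coding RNA in RefSeq, so reads of the 2 cannot be told apart here. With either Normal rat left out, the call in IS held (3.02 ± 0.73, 0.0123 without replicate 1, and 2.92 ± 0.73, 0.0188 without replicate 3), while those in IC and IS-HA were lost. The microglia and macrophage markers rose in the same rats (10 of 12 higher in IS, against 18.8% of all tested genes). They summed to 278 to 394 TPM in Normal and 4116 to 5323 TPM in IS. Their part in the Gabrr2 values was not tested.

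Gabre, an epsilon subunit, was low throughout and followed a different order. It measured 0.839 and 0.621 TPM in Normal, 0.239, 0.134 and 0.0879 TPM in IC, 0.361, 0.215 and 0.683 TPM in IS, and 0.817, 0.651 and 1.5 TPM in IS-HA. It fell in IC (log2 fold change -2.27 ± 0.58, adjusted p = 0.0218 by edgeR) on 7, 5 and 2 counts, and its values in IS (-0.83 ± 0.55, 0.23) and IS-HA (0.38 ± 0.52, 0.584) overlapped Normal.

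Gabbr1 was the most abundant receptor gene, and with Gabbr2 it forms the receptor of slow, G protein-coupled inhibition. Gabbr1 measured 471 and 524 TPM in Normal, 394, 301 and 380 TPM in IC, 213, 254 and 130 TPM in IS, and 298, 192 and 333 TPM in IS-HA. All 9 hemorrhage rats were below both Normal rats. It fell in IS (log2 fold change -1.32 ± 0.26, adjusted p = 0.00237 by edgeR), and was at -0.52 ± 0.26 (0.185) in IC and -0.90 ± 0.26 (0.0255) in IS-HA. Gabbr2 measured 32.1 and 70.2 TPM in Normal, 21.0, 17.2 and 13.3 TPM in IC, 34.8, 10.8 and 4.16 TPM in IS, and 37.2, 9.94 and 54.7 TPM in IS-HA. The IS and IS-HA groups each overlapped Normal in TPM, and no comparison passed the test (IC -1.62 ± 0.69, 0.128, IS -1.64 ± 0.70, 0.0714, IS-HA -0.66 ± 0.69, 0.476).

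Added up within a class, the TPM of the receptor genes gave 2500 in Normal, 1373 in IC, 773 in IS and 1155 in IS-HA over the 47 genes. In IS the class sums stood at 20.8% of Normal for mGlu, 22.5% for GABA-A, 26.4% for AMPA, 39.3% for GABA-B, 39.5% for NMDA and 49.0% for kainate receptors. In IC they ranged from 41.9% (GABA-A) to 68.5% (GABA-B), and in IS-HA from 37.0% (mGlu) to 59.4% (kainate). GABA-A genes made up 29.7% of the receptor total in Normal, 22.7% in IC, 21.6% in IS and 25.6% in IS-HA, while kainate genes made up 6.85%, 8.29%, 10.8% and 8.80%. In IS-HA replicate 2 each of the 7 sums was lower than in any IC rat, as in the AMPA sums of 214, 74.3 and 170 TPM in IS-HA beside 271, 165 and 192 TPM in IC.

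**Figure D3:**
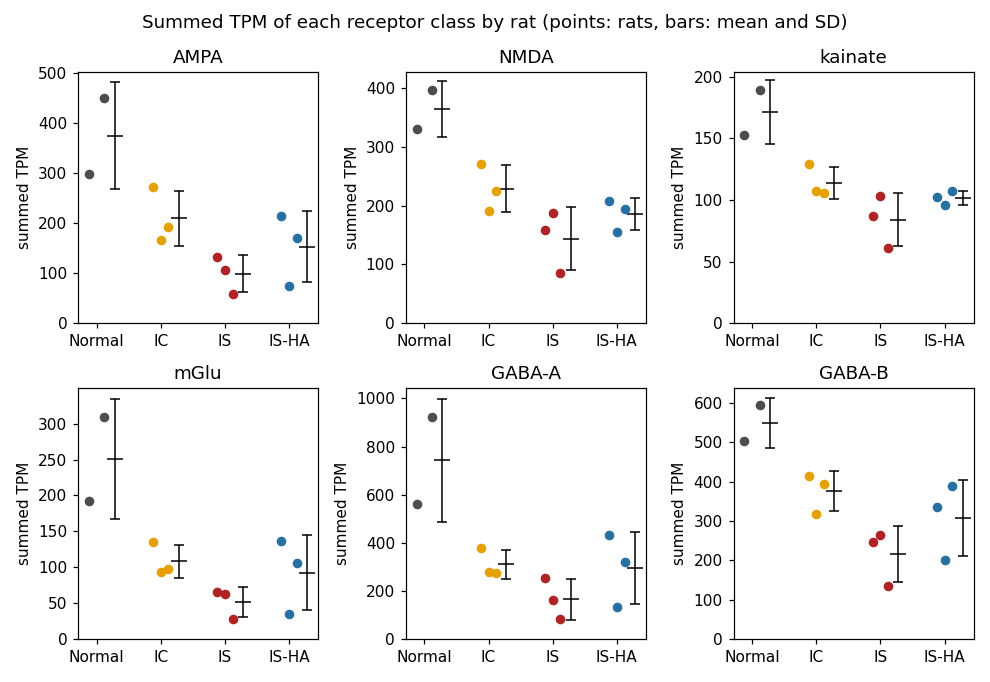
Summed TPM (vertical axis) of each of 6 receptor classes in every rat, by group; each point is a rat, the horizontal line the group mean and the bar 1 SD. Means go down from Normal to IC to IS in every panel, and the IS-HA mean lies above the IS mean, with IS-HA replicate 2 low in most panels.

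Ratios of subunits within a library do not depend on its depth or scaling, and 11 of them were compared. The ratio of Gria1 to Gria2 in TPM had geometric means of 0.610 in Normal, 0.455 in IC, 0.341 in IS and 0.399 in IS-HA. In log2 units it was -0.72 and -0.71 in Normal, -1.23, -1.25 and -0.94 in IC, -1.34, -1.64 and -1.68 in IS, and -0.93, -2.03 and -1.02 in IS-HA, so all 9 hemorrhage rats were below both Normal rats. The ratio of Grm5 to Grm3 had geometric means of 1.02, 0.676, 0.231 and 0.297 in the same order, again with all 9 below both Normal rats. Grin2a to Grin2b went from 1.16 in Normal to 0.853 in IC, 0.167 in IS and 0.637 in IS-HA. IC replicates 2 and 3 and IS-HA replicate 1 lay between the Normal rats. Its IS values stand on Grin2a counts of 23, 10 and 1, the last under the floor. The share of Gria2 in the AMPA sum stayed within a narrow range, at 42.3% in Normal, 45.3% in IC, 44.9% in IS and 43.6% in IS-HA. Over 77 two-sided exact permutation tests of these ratios (7 contrasts each), the lowest p was 0.0364, the smallest that 9 rats against 2 allow, the lowest adjusted p was 0.453 and 0 passed. Comparisons of 3 rats against 2 cannot go below 0.2, and those of 3 against 3 cannot go below 0.1.

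**Figure D4:**
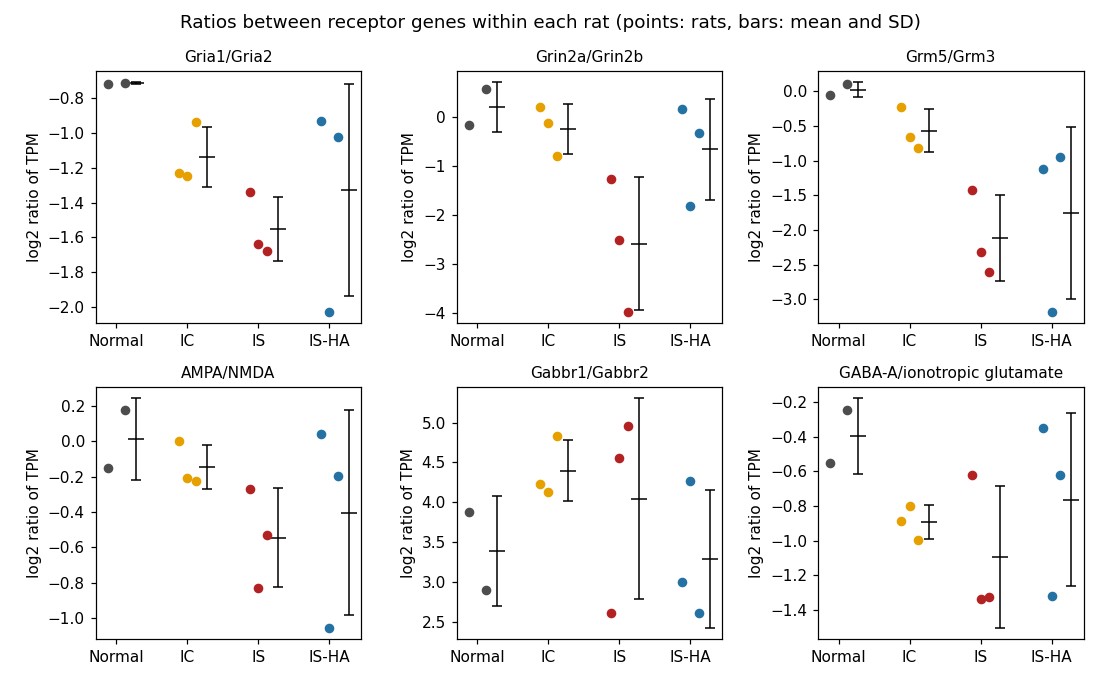
Log2 ratio of TPM (vertical axis) for 6 pairs of receptor genes or sums in every rat, by group; points are rats, horizontal lines are group means and bars are 1 SD. Gria1 over Gria2 and Grm5 over Grm3 lie below both Normal rats in all 9 hemorrhage rats, while the other panels overlap.

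The next questions were whether the larger hemorrhage differed from the smaller one and whether aspiration changed the receptor genes. Between IS and IC, 0 of the 40 members were called by edgeR (0% of all tested genes lower), and 17 were lower and 2 higher at an unadjusted p under 0.05 with the same fold, where 5.15% and 3.37% of all tested genes were. Among the members of smallest p were Grin2a (log2 fold change -2.85 ± 0.76, adjusted p = 0.147 by edgeR) and Grik2 (-0.81 ± 0.22, 0.147), and their IS rats were all below their IC rats. In normalized CPM this separation held for 25 of the 40 members, so it is not particular to the genes for which it is stated. Its share of all tested genes is not given here. DESeq2 called 10 lower (2.22% of all tested genes), among them Gria1, Gria2, Gria4, Grin2a, Grin3a, Grik3, Gabrb2 and Gabrg3. Without IS-HA replicate 2, a library of neither group, edgeR called 16 lower (3.87% of all tested genes).

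Between IS-HA and IS, 0 members were called (0.00635% of all tested genes higher), and 10 were higher and 1 lower at an unadjusted p under 0.05 with the same fold, against 2.74% and 0.908% of all tested genes. The members of smallest p were Grin3a (log2 fold change 2.04 ± 0.51, adjusted p = 0.499 by edgeR), Gabrb2 (2.64 ± 0.70, 0.499) and Gabrb1 (1.11 ± 0.30, 0.499). For Gabrb1 all IS-HA rats were above all IS rats, whereas for Grin3a and Gabrb2 IS-HA replicate 2 lay inside the IS range. Without that library 6 members were called higher (2.48% of all tested genes), among them Gabrb2 (3.05 ± 0.56, 0.0363), Grin3a (2.39 ± 0.40, 0.0342), Gabrg3, Gabrg1 and Gabra4. DESeq2 on all rats called 2 higher, Gabrb2 and Grin3a (0.273% of all tested genes). The 1 member lower at an unadjusted p was Gabrr2 (-1.33 ± 0.41, adjusted p = 0.54 by edgeR), whose IS-HA rats were all below the IS rats. IS-HA replicate 2 has the smallest total count, and its part in these values was not tested beyond leaving it out.

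Between IS-HA and IC, 0 members were called (0% of all tested genes) and 2 were higher at an unadjusted p under 0.05 with the same fold, against 1.16% of all tested genes. The smallest p values belonged to Gabre (log2 fold change 2.66 ± 0.55, adjusted p = 0.841 by edgeR), Grik2 (-0.73 ± 0.22, 0.841) and Grik1 (1.14 ± 0.39, 0.841). DESeq2 called 1 member higher, Gabre (2.68 ± 0.65, adjusted p = 0.0327), where it called 0.0572% of all tested genes.

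Because the receptors are mostly neuronal, their changes were set beside 12 neuron markers. In IS the 12 markers centred on a log2 fold change of -1.40 (median, from -3.23 to -0.80), 8 of 12 were called lower, and their levels summed to 4218 to 5460 TPM in Normal and 874 to 2623 TPM in IS. Of the 40 tested receptor genes, 29 were below this median (12.5% of all tested genes were). Grin2a, Grin3a, Grik3, Grm5, Gabrb2 and Gabrg3 were among those below all 12 markers, and Grik5 and Gabrr2 were above all 12. In IC, 19 receptor genes were below the marker median of -1.18 (5.63% of all tested genes), and in IS-HA 29 were below -0.82 (15.6%). By rat, the receptor median was -1.52, -1.78 and -2.61 in IS and the neuron marker mean -1.01, -1.61 and -2.73, in IS-HA -0.88, -1.89 and -1.13 beside -0.74, -1.61 and -0.82, and in IC -0.84, -1.32 and -1.08 beside -0.90, -1.42 and -1.16. The receptor median was above the marker mean in IS replicate 4 and every IC rat, and below it in the other hemorrhage rats. The counts of receptor genes were taken against the marker median, which is another summary than this mean by rat. IS replicate 4 and IS-HA replicate 2 were the lowest of their groups in both the receptor median and the neuron marker mean. The rats were ordered otherwise by the medium spiny neuron mean, at -2.44, -1.39 and -2.57 in IS. In IS-HA that mean was -1.52, -2.07 and -2.53, lowest in replicate 3. Of the medium spiny neuron markers 11 of 12 fell in IS (median -1.77) and 11 of 12 in IS-HA (-1.80). Of the 7 interneuron markers 6 fell in IS. Over all tested genes, 17% were called lower in IS and 7.71% in IS-HA. The part of neuron number in the receptor values was not tested.

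**Figure D5:**
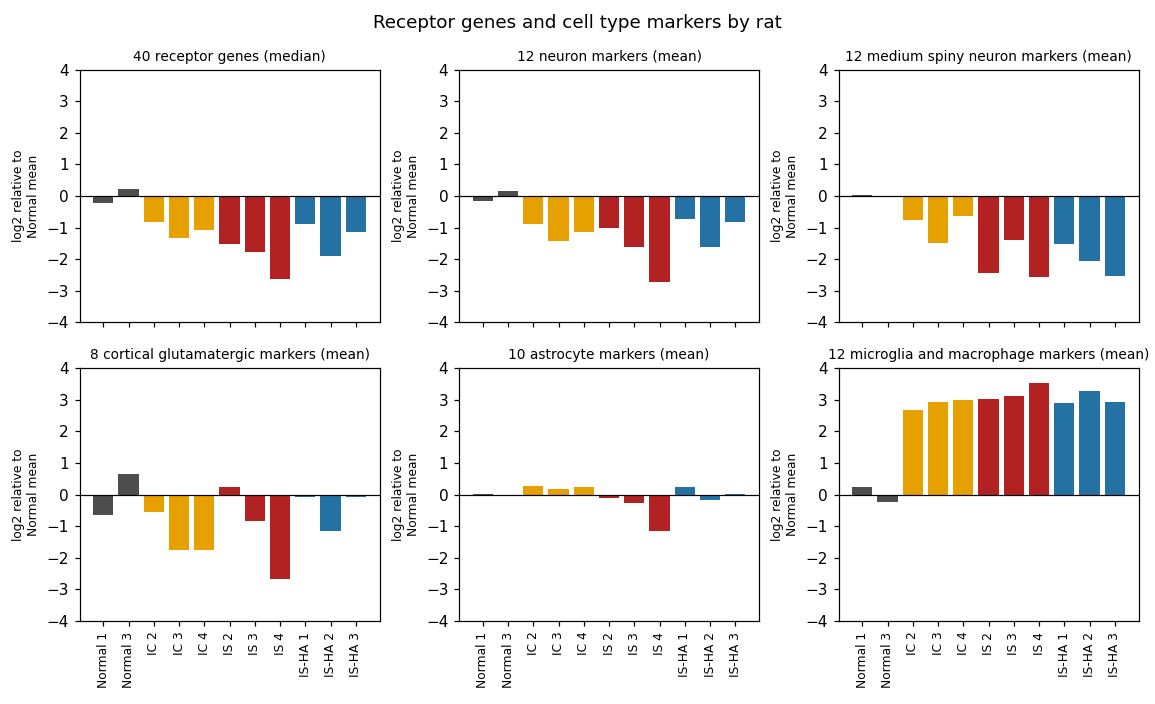
Median of the 40 tested receptor genes and means of 5 marker lists in each of the 11 rats (horizontal axis), as log2 difference from the Normal mean (vertical axis); each bar is a rat. The receptor median and the neuron and medium spiny neuron means are below 0 in all 9 hemorrhage rats and lowest in IS replicate 4. The cortical glutamatergic mean is also lowest in that rat but is 0.23 in IS replicate 2. In the hemorrhage rats the microglia and macrophage mean is 2.67 to 3.53 above Normal.

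The remaining marker lists moved as follows in IS: 0 of 8 cortical glutamatergic markers were called (per-rat means 0.23, -0.83 and -2.69, against -0.65 and 0.65 in the Normal rats), 1 of 10 astrocyte markers fell and 1 rose, 4 of 8 oligodendrocyte markers fell, and 0 of 7 oligodendrocyte precursor markers were called. Immune markers rose, with 7 of 7 tested neutrophil genes higher. In addition, 1 of 8 endothelial and 4 of 7 fibroblast and mural genes rose, with 1 of the latter lower. Over all tested genes, 17% were called lower and 18.8% higher in IS. Astrocytes carry part of the Grm3 and Grm5 signal in brain, and their summed markers were 4436 to 4743 TPM in Normal and 3964 to 7449 TPM in IS. The sum does not speak for the list, whose median log2 fold change in IS was -0.52 (from -3.74 to 3.15). By rat the astrocyte marker mean was -0.12, -0.27 and -1.15 in IS. The part of astrocytes in the Grm3 and Grm5 values was not tested.

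The partner genes of the receptors were counted with the same test. Over all tested genes, 2.66% were called lower in IC, 17% in IS and 7.71% in IS-HA. Called higher were 10.9%, 18.8% and 15.1% in the same order. Of 19 auxiliary subunits of glutamate receptors, which set their trafficking and gating, 5 fell in IC, 11 in IS and 8 in IS-HA. Examples in IS were Cacng2, the gene of stargazin (log2 fold change -2.18 ± 0.37, adjusted p = 0.000964 by edgeR), and the kainate receptor partner Neto1 (-2.47 ± 0.42, 0.00104). Of 18 excitatory scaffold genes, 0 were called in IC, 15 fell and 1 rose in IS, and 11 fell and 1 rose in IS-HA. Dlg4, the gene of PSD-95, fell in IS (-1.50 ± 0.36, 0.00622), Dlg2 fell more (-3.69 ± 0.63, 0.00107), and Homer3, which binds group I mGlu receptors, rose (1.62 ± 0.31, 0.00189). Of 14 tested inhibitory scaffold and partner genes (of 15 listed), 3 fell in IC, 9 fell and 1 rose in IS, and 4 fell and 1 rose in IS-HA. The largest fall among them in IS was that of Kctd16, an auxiliary subunit of GABA-B receptors (-3.67 ± 0.38, 6.94e-05), and the gene that rose was Gabarap (1.75 ± 0.32, 0.00143), which also serves autophagy.

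On the transmitter side, 2 of 13 genes of glutamate synthesis, release and uptake fell in IC, 8 fell and 1 rose in IS, and 3 fell and 1 rose in IS-HA. Slc1a2, the main astrocytic glutamate transporter, fell in IS (log2 fold change -3.74 ± 0.56, adjusted p = 0.000501 by edgeR), and Glul, which makes glutamine from glutamate, rose (1.09 ± 0.20, 0.00148). Slc17a7, the vesicular transporter of cortical terminals, was at -0.39 ± 1.02 (0.767). Of 8 GABA genes, 1 fell in IC, 7 in IS and 5 in IS-HA. The GABA-making enzyme genes Gad1 (-1.41 ± 0.28, 0.00249) and Gad2 (-3.18 ± 0.42, 0.000259) and Abat, which breaks GABA down (-3.23 ± 0.48, 0.000474), all fell in IS. Slc12a5, the neuronal potassium and chloride exporter that makes GABA inhibitory, fell in all 3 groups (IC -1.28 ± 0.29, IS -1.96 ± 0.30 and IS-HA -1.64 ± 0.29), while the importer Slc12a2 was at -0.42 ± 0.19 (0.0899) in IS. Of 3 tested glycine receptor genes (of 5 listed), Glra2 fell in IS (-2.49 ± 0.47, 0.00192), and the counts were 1 lower in IC, 1 in IS and 0 in IS-HA. Beside these counts, 2.66%, 17% and 7.71% of all tested genes were called lower in IC, IS and IS-HA, and 10.9%, 18.8% and 15.1% higher. No gene of these lists was called between the hemorrhage groups.

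Many GABA-A genes lie beside each other in the genome, and neighbours could be compared. The log2 fold changes in IS of the neighbours Gabrg3 and Gabra5 were -3.95 and -2.32, and in the cluster of Gabrb1, Gabra4, Gabra2 and Gabrg1 they were -1.43, -3.11, -1.93 and -2.41. Gabre and Gabra3 were at -0.83 and -2.27. These neighbours differed in size of change. Their shared sign in IS says nothing about neighbours, because 39 of the 40 tested members were below 0 there. In IS-HA the neighbours Gabre and Gabra3 were at 0.38 and -1.21. Over the 40 tested members, the log2 fold change in IS had a Spearman rho of 0.02 with gene model length and -0.04 with the Normal TPM level, given as a description over genes that share the same libraries.

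Some members overlap other genes in RefSeq: Grin1 with Lrrc26, Grm3 with Elapor2, Grin3a with Ppp3r2, Grin2d with Grwd1, and the untested Grin3b with Tmem259. The strand setting of the counting is not given in the sources used here, so reads of these pairs may not be separated.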

How the data were processed

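RNA of 11 rat striata was sequenced as poly(A) libraries (stranded mRNA kit, read pairs). Per the submitters' processing notes, the authors trimmed reads with fastp 0.20.0, aligned them with HISAT2 2.1.0 to mRatBN7.2 and counted them with featureCounts. The authors deposited raw counts per gene and TPM (levels scaled for gene length and depth) in 1 table of 30560 genes, of which 4447 have a blank symbol and 8693 are at 0 in every rat. Total counts per rat ran from 6701301 to 18817645, and the floor of 3 counts covers counting error alone, whereas the SEs and SDs hold the spread between rats.

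Counts were tested with edgeR 4.0.16 (R 4.3.3): filterByExpr, TMM scaling and a quasi-likelihood fit of 4 group means over all 11 rats, with Benjamini-Hochberg adjustment over 15742 genes. The filter asked for enough counts in as few rats as the smallest group holds, so a gene detected in the Normal rats alone could enter. Calls needed an adjusted p under 0.05 and an absolute log2 fold change of at least 1, the cutoffs stated in the study's methods. The study elsewhere gives a looser fold for genes lower in IS-HA than in IS. Its methods name DESeq2 as the test, which was an alternative here. By DESeq2, 2.22% of all tested genes were called lower in IS than in IC, against 0% by edgeR. TPM served for levels, sums and ratios, the last with two-sided exact permutation tests (scipy 1.17.1). Alternatives used DESeq2 1.42.0, limma 3.58.1 (also on log2 of TPM + 1 or + 0.1), other scalings and filters, and each rat left out. The fitting steps were tested on simulated data. Same-numbered rats are different animals. Nothing in the sources used here says whether the rats of a group were handled in separate batches, so p-values measure the spread between these samples.

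The members and the gene and marker lists were chosen with earlier results of these data known. Full statistics were given for subunits picked by role, for the 5 members with the largest change called in IS against Normal, for members higher than Normal at an unadjusted p under 0.05, and for the 3 members of smallest p in each comparison between hemorrhage groups. Other members were given by counts, or named after their values were seen. The values of 5 members are not reported here singly, whatever part of this rule names them, and enter the counts, medians and sums alone. Promoters came from RefSeq on GRCr8, another build than that of the counts, and were matched by symbol. Class sums are given without a test.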

Additional observations from a re-analysis of the deposited data

Results flagged for a closer look

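The 7 receptor genes that were too low for the test still had counts in some hemorrhage rats. Grm6, an mGlu gene known from retinal bipolar cells, was above 3 counts and above both Normal rats in TPM in 5 of the 9 hemorrhage rats. Its counts were 6 and 6 in Normal, 9, 4 and 4 in IC, 9, 8 and 3 in IS, and 5, 4 and 6 in IS-HA. Gabrp was above 3 counts and above both Normal rats in 4 rats, with 5 and 4 counts in IC and 7 and 5 in IS, against 3 and 2 in Normal. Gabrr1, the neighbour of Gabrr2, was so in 3 rats, with 6 counts in IS and 8 and 4 in IS-HA, against 1 and 1 in Normal. Grin3b (6 counts in IS-HA replicate 3, against 4 and 2 in Normal) and Gabrq (6 counts in the same rat, against 4 and 7) were so in 1 rat each. The Normal libraries were deeper than most, so equal counts stand for unequal shares. Gabra6 and Gabrr3 stayed at or under 2 counts in every rat. None of these differences was tested.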

How the results depend on the processing

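Of 312 recomputed counts of receptor genes called, 253 stayed within 1.5 times the reported count and 59 moved. The count of 32 lower in IS was 24 to 34 with each rat left out in turn. The count of 9 lower in IC (2.66% of all tested genes) was 5 with total counts alone as scaling (1.34%), 18 by DESeq2 (4.9%), 22 by voom with quality weights (6.9%), 3 by limma on log2(TPM + 1) (1.01%), 2 on log2(TPM + 0.1) (0.654%), 3 with at least 10 counts in every rat (fewer genes tested, 2.29%), 22 fitting only the groups compared (6.88%), 22 at an unadjusted p (6.37%), and 0 to 20 with each rat left out. The 1 higher gene in IC, Gabrr2, became 0 by limma on log2(TPM + 1), with at least 10 counts in every rat, and with some rats left out (0 to 1). In IS it became 0 with at least 10 counts in every rat, which removes Gabrr2 from the test. The 21 lower in IS-HA (7.71%) became 10 by limma on log2(TPM + 0.1) (4.84%), 8 fitting only the groups compared (3.99%), and 1 to 21 with each rat left out. The 1 higher in IS-HA became 0 by limma on log2(TPM + 1), with at least 10 counts in every rat, fitting only the groups compared, with a gene length offset, and with some rats left out (0 to 1).

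Between IS and IC the 0 lower became 10 by DESeq2 (2.22% of all tested genes), 11 by voom (2.81%), 17 at an unadjusted p (5.15%) and 0 to 16 with each rat left out, and 2 were higher at an unadjusted p. Between IS-HA and IS the 0 higher became 2 by DESeq2 (0.273%), 2 by voom (1.24%), 10 at an unadjusted p (2.74%) and 0 to 6 with each rat left out, and 1 was lower at an unadjusted p. Between IS-HA and IC the 0 higher became 1 by DESeq2 (0.0572%) and 2 at an unadjusted p (1.16%).

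With the replicate number as a block, 0 members were lower and 0 higher in IC, 17 were lower in IS, and 6 were lower and 0 higher in IS-HA, where 0.0953%, 5.52% and 3.71% of all tested genes were lower in the same order. With the block and a gene length offset together the counts lower were 0, 17 and 8 (0.222%, 5.66% and 3.93% of all tested genes), with 0 higher in IC and in IS-HA. The numbers share no animal. The deviations of same-numbered IC and IS rats had a mean correlation of 0.03 over 3 pairs (lowest -0.38). For IC and IS-HA it was -0.17 over 2 pairs, and for IS and IS-HA -0.30 over 2 pairs. So few pairs cannot show whether same-numbered rats shared a batch. The block also leaves fewer degrees of freedom.

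Scaling by total counts alone moved the median log2 fold change of all tested genes to 0.14 in IC, 0.15 in IS and 0.18 in IS-HA, and that of the members to -0.96, -1.75 and -1.04. Under it 90.6% of all calls in IC were higher, against 80.4% as reported, and 77.3% against 66.3% in IS-HA. The sign of each class median against Normal was not turned by it.

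For 26 named genes, 133 results under up to 24 alternatives gave 3148 values, as a gene that an alternative did not test gave none. Of these values, 2849 kept direction and side of the threshold, 207 lost the call, 75 gained it and 17 reversed. All reversed values were results without a call. For Gabbr2 between IS and IC the log2 fold change of -0.02 became 0.16 with the length offset and -1.08 to 0.41 with each rat left out. Grik1 in the same comparison (-0.07) became 0.046 with the offset and -0.45 to 0.18 with each rat left out. Gabrb1 in IS-HA against Normal (-0.32) ranged from -0.75 to 0.28. Between IS-HA and IS, Gabrd (0.13) became -0.11 by voom, -0.045 with the block, -0.059 with block and offset, and -0.11 to 0.35 with each rat left out. Grik2 (0.08) became -0.043 with the offset and -0.090 to 0.21, and Grik5 (0.15) became -0.074 by voom and -0.030 to 0.33. The kainate sum in IS, on the log2 scale against Normal, went from -1.03 to -1.71 without Grik5, its member of highest TPM, and the rise in the Gria2 share went from 2.61 to 0.83 percentage points in raw counts, which are not divided by length. The cause of the other shifts was not tested. Normal had 2 rats, and values on few counts (Grin2a and Gabrg3 in IS, Gabre in IC, Gabrr2 in Normal) are the least precise.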
